A study of Mus musculus with 15 samples.

Results

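RAB proteins are small GTPases that mark and direct the membrane compartments of a cell. An exchange factor loads a RAB with GTP at its own membrane, the loaded RAB recruits effectors that move, tether or fuse vesicles, a GTPase-activating protein ends the signal, and GDP dissociation inhibitor carries the lipid-modified protein back through the cytosol. In microglia and other macrophages RABs organise phagocytosis, the maturation of phagosomes, the recycling of receptors and the secretion of cytokines. The members described here were all probes of a mouse Illumina bead array whose annotated gene symbol is Rab followed by a number, with a letter allowed after it, and effectors with Rab in their names were left out. This rule, which used no measured value, took 112 of 45281 probes, and these stand for 59 of 19057 annotated genes. Of the 59 genes, 38 had a probe above background (detection p under 0.01) on at least 3 of the 15 arrays and were tested, among 8561 genes in all.

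The arrays measured total RNA of microglia derived in culture from C57BL/6 mouse embryonic stem cells and kept in N2-supplemented medium. Cells received IL-4 (100 U/ml, n = 3), a type 2 cytokine, LPS (500 ng/ml) together with IFN-γ (20 ng/ml, n = 3), a pro-inflammatory pair, or TGF-β (50 ng/ml, n = 3), a regulatory cytokine, each for 24 h, or no stimulus (untreated, n = 6). The study set pro- and anti-inflammatory activation states of these cells side by side. Nothing in the labels says that replicates were grown apart, so every p-value below rests on array-to-array spread that may be technical.

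Of 16 macrophage and microglia markers 14 had a probe, and 9 of these, among them Csf1r, Tyrobp, Trem2 and Adgre1, were above background on all 15 arrays. P2ry12 and Fcrls, markers of microglia in the brain, were above background on 0 arrays, and Cx3cr1 and Tmem119 on 3 arrays each. Sall1, another such marker, was above background on 15 arrays by at least 1 of its 2 probes. Its group means of 5.93 to 6.25 lay near the lowest signals counted as above background (5.55 to 5.90). Mean log2 levels with TGF-β were 5.99 for Cx3cr1 and 6.90 for Tmem119. In the other groups the means were 4.54 to 4.70 for Cx3cr1 and 4.91 to 5.19 for Tmem119. All probed markers of neurons, oligodendrocytes and fibroblasts were above background on 0 arrays. Of 6 astrocyte markers 4, Gfap and Aqp4 among them, were above background on 0 arrays, Slc1a2 on 15 and Aldh1l1 on 9. Of 8 embryonic stem cell markers 6, Nanog and Sox2 among them, were above background on 0 arrays, Klf4 on 15 and Pou5f1 on 4. In the endothelial list of 6 genes the summed log2 level was 13.09 to 13.36 with IL-4, 12.47 to 12.82 with LPS/IFN-γ, 13.61 to 13.86 with TGF-β and 12.18 to 12.81 untreated, carried by Flt1, while the other 5 markers, Pecam1 and Cdh5 included, were above background on 0 arrays. The third LPS/IFN-γ array was unlike its group: 146 genes differed there by 2-fold or more from the mean of its 2 companions, while every other array had 1 to 33 such genes. On that array 0 RAB genes were 2-fold off. Where leaving it out lost a call of this stimulus against untreated or moved a called value by over 1.5 times, the value without it is given. Each array had 13601 to 14789 probes above background. In RNA from whole cultures, fewer cells of a type and less RNA per cell cannot be told apart.

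The RAB genes were called most often with LPS/IFN-γ and least often with IL-4. Levels below are background-corrected, quantile-normalized log2 signals, ± after a log2 fold change is its standard error, and a gene was called where limma's Benjamini-Hochberg adjusted p over all 8561 genes was under 0.05. With LPS/IFN-γ 19 of the 38 genes were called, or 50.0% beside 55.7% of all genes, 7 higher and 12 lower than untreated (21.5% and 34.3% of all genes). With TGF-β 11 were called, or 28.9% beside 38.8% of all genes, 8 higher and 3 lower (19.7% and 19.1% of all genes). With IL-4 there was 1 call, or 2.63% beside 12% of all genes, 1 higher and 0 lower (5.69% and 6.31% of all genes). The shares with each stimulus were thus near or below those of all genes. The median log2 fold change of the 38 genes was 0.03 with IL-4, -0.02 with LPS/IFN-γ and 0.11 with TGF-β, against -0.02, -0.08 and 0.00 over all genes. The 3 comparisons share the 6 untreated arrays. In all, 23 RAB genes were called with at least 1 stimulus, 15 of them with 1 stimulus, or 39.5% beside 41.9% of all genes. The other 8, or 21.1%, were called with both LPS/IFN-γ and TGF-β, beside 24.4% of all genes, and 4 of the 8 in opposite directions, beside 945 of 2093 such genes over the whole table (45.2%). The 19 calls with LPS/IFN-γ and the 11 with TGF-β had the same direction within each of the 3 bead chips that held the arrays. Because the genes were called on these same arrays, this was largely given by the calls and is no separate check.

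**Figure D1:**
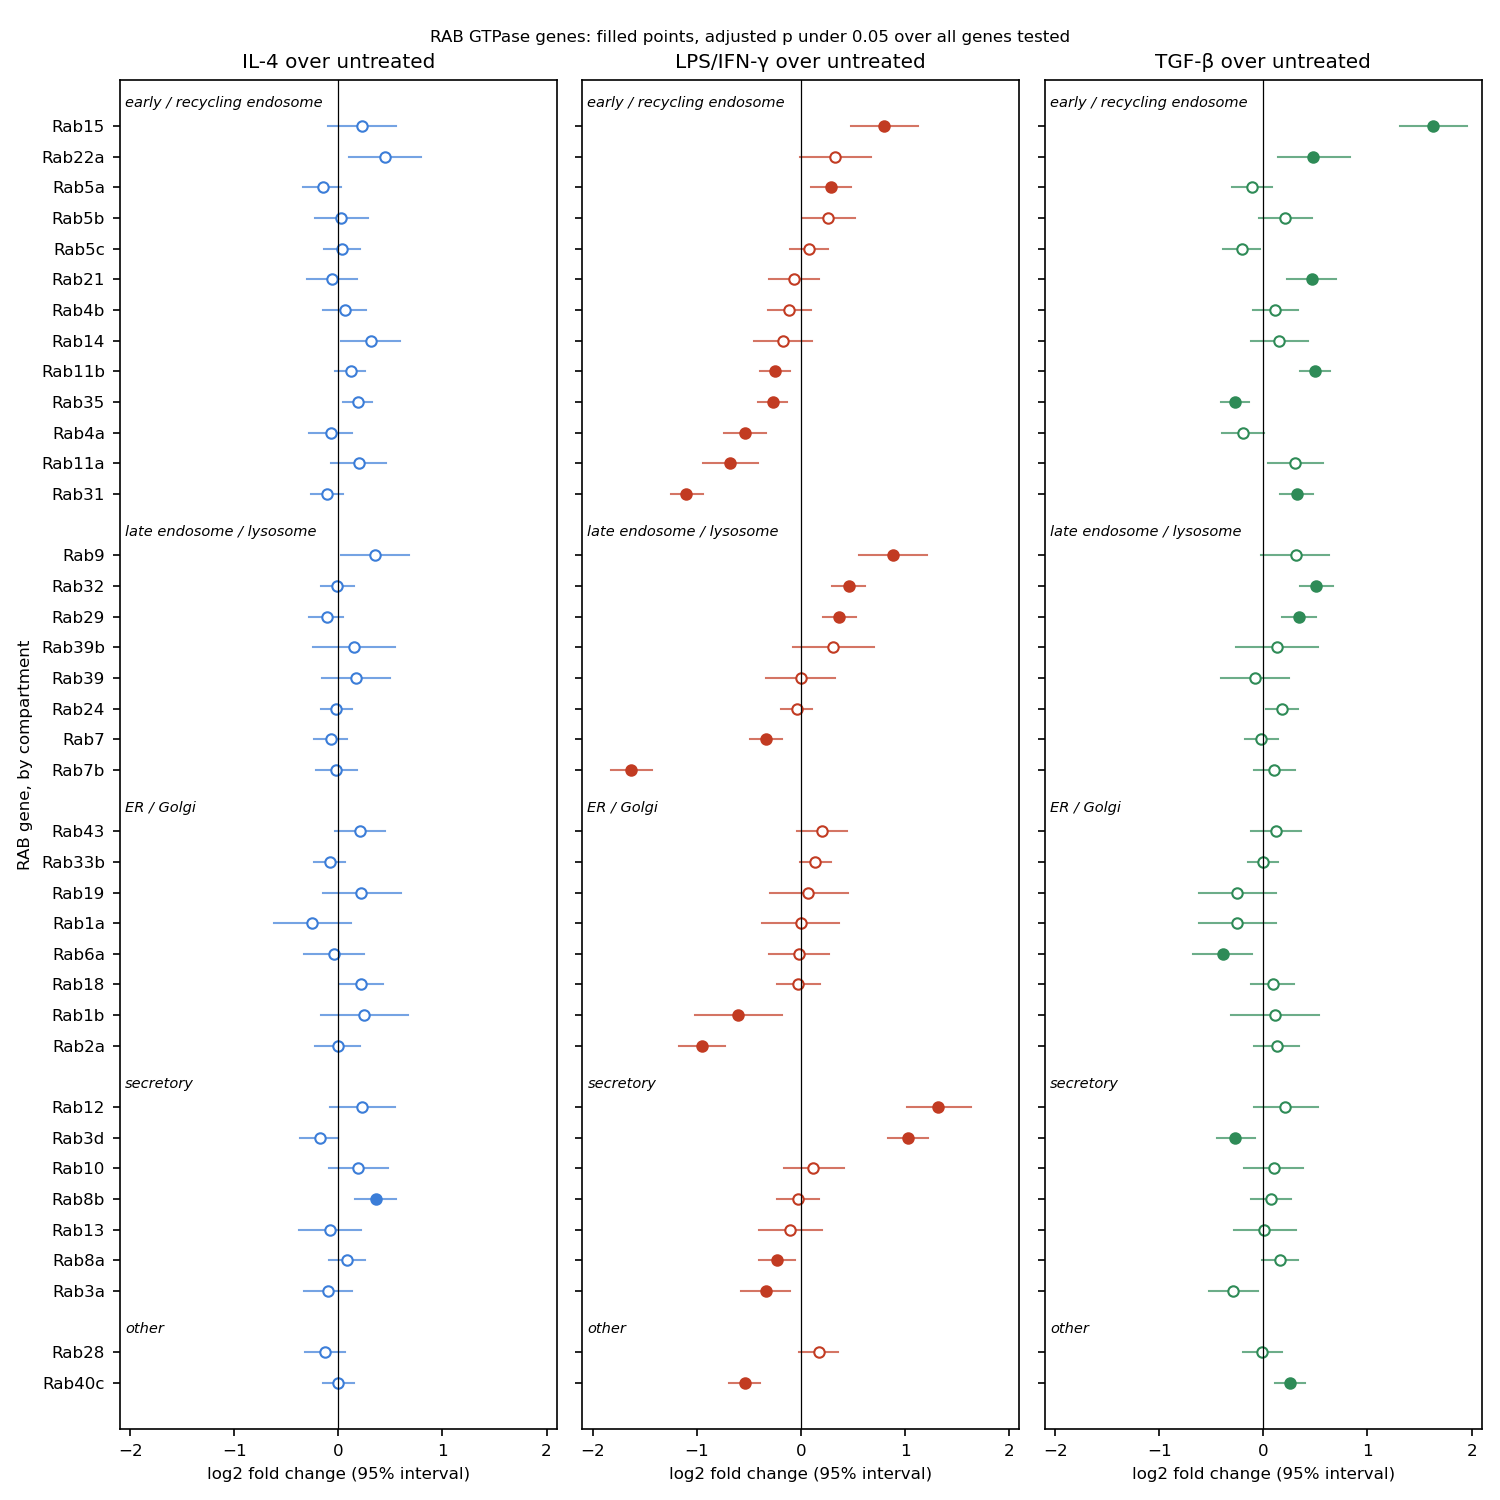
Log2 fold change of each of the 38 RAB genes against untreated cells with its 95% interval (horizontal axis), for IL-4, LPS/IFN-γ and TGF-β (n = 3 each, untreated n = 6), with genes grouped by compartment (vertical axis). Filled points had adjusted p under 0.05: 1 with IL-4, 19 with LPS/IFN-γ, where values spread from -1.63 (Rab7b) to 1.32 (Rab12), and 11 with TGF-β.

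The plot of fold changes by compartment shows widely spread values with LPS/IFN-γ and narrower ones with the other stimuli. The split of calls by direction depended on how the arrays were scaled. With LPS/IFN-γ, cyclic loess gave 10 higher and 10 lower RAB genes, against 7 and 12 with quantile scaling. Over all genes it gave 2258 higher and 2266 lower, against 1837 and 2933. For TGF-β, scaling by the array median gave 1 higher and 6 lower RAB genes, beside 523 and 2071 of all genes, and cyclic loess 10 higher and 1 lower, beside 1878 and 1434. Quantile scaling gave 8 and 3, beside 1690 and 1631. Median scaling also moved the median of all 8561 genes to -0.19 with TGF-β and that of the RAB genes to -0.09, so the RAB median was above that of all genes under both scalings.

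The sequences before the starts of 6 called genes that moved in different directions are shown because LPS/IFN-γ and TGF-β signal to known DNA motifs. RefSeq promoter windows (GRCm38.p6) matched 34 of the 38 tested genes. Rab2a, Rab4a and Rab7b, described below, are named only. Each window is the 250 bases before a start in RefSeq's promoter table, printed 5′ to 3′ on the gene's strand. RefSeq's gene bounds can reach further out than that start, and 80 of the 250 bases lie inside them for Rab12, 235 for Rab15, 16 for Rab3d and 0 for the other 3. Rab12 (chr17:66519671-66519920, minus strand) and Rab3d (chr9:21918184-21918433, minus strand) had the highest fold changes with LPS/IFN-γ, and Rab31 (chr17:65772753-65773002, minus strand) and Rab11a (chr9:64737757-64738006, minus strand) were among the lowest. Rab15 (chr12:76822525-76822774, minus strand, 1 of 4 starts in the table) had the highest fold change with TGF-β, and Rab32 (chr10:10558208-10558457, minus strand) was higher with both stimuli. Capitals mark a PU.1 core in Rab32.
Rab12: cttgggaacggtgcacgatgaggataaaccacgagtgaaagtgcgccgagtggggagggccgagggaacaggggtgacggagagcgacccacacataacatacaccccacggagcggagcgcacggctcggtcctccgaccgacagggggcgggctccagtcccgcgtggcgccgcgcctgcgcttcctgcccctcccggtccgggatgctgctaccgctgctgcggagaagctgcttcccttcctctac
Rab3d: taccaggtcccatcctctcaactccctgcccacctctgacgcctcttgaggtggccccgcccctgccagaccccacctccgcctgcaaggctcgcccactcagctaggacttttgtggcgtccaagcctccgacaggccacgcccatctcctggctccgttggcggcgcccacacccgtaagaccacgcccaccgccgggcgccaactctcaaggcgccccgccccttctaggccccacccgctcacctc
Rab31: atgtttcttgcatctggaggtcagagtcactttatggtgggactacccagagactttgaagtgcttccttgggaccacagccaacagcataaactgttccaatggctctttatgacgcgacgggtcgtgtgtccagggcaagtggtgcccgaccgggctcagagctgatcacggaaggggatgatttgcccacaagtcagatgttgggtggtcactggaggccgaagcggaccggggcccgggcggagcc
Rab11a: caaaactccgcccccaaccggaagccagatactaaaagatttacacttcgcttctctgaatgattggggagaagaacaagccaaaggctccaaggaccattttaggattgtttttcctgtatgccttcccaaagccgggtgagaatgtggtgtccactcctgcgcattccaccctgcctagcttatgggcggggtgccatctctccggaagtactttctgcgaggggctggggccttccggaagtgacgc
Rab15: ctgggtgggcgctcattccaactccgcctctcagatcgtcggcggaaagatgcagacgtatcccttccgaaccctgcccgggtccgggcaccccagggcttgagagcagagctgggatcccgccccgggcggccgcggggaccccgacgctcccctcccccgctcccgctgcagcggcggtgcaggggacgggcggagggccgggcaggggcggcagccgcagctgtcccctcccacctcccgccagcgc
Rab32: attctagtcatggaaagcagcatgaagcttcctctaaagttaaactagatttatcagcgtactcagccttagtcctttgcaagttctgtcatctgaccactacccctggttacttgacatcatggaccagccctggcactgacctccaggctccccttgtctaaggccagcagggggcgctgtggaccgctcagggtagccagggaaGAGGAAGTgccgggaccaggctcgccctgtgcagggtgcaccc

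In these windows 7 motifs were searched on both strands. The RAB windows are 1 per gene, at its most upstream start, while the windows over all genes count every start, so the shares are not strictly alike. The interferon-stimulated response element core, GAAA followed by any 2 bases and GAAA, was in 1 of the 34 RAB windows (Rab19), beside 2.98% of all 32851 windows, and the NF-kB consensus in 1 (Rab28), beside 3.9%. The PU.1 core GAGGAAGT was in 1 (Rab32, at position -43, counted back from the start), beside 2.44%, and the E-box CACGTG in 2 (Rab21 and Rab5a), beside 6.02%. The windows of Rab19 and Rab21 lie wholly inside RefSeq's gene bounds (all 250 bases). The SMAD box CAGACA was in 5 windows, beside 17.1% of all. The SMAD palindrome GTCTAGAC and the AP-1 site TGANTCA were in 0 RAB windows, beside 0.167% and 6.75% of all. None of the 7 was found for Rab12, Rab3d, Rab31, Rab11a or Rab15, which says only that these letters are not in these windows.

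With LPS/IFN-γ, Rab12, Rab3d and Rab9 had the highest fold changes and Rab7b the lowest. Rab12, which in mouse cells directs transferrin receptor from recycling endosomes to lysosomes, read 10.11, 10.14 and 9.93 on the LPS/IFN-γ arrays, against 8.53 to 8.98 (median 8.74) untreated. All LPS/IFN-γ arrays lay above all untreated arrays, a log2 fold change of 1.32 ± 0.14 (2.50-fold, adjusted p = 1.7e-06). It read 8.96 ± 0.06 with IL-4 and 8.95 ± 0.43 with TGF-β (SD, n = 3 each) and was called with neither. Rab3d, a RAB of secretory granules, had signals of 10.40, 10.18 and 10.39 with LPS/IFN-γ, compared with 9.18 to 9.42 (median 9.30) in untreated cells. Again the groups did not overlap (1.03 ± 0.09, 2.04-fold, adjusted p = 1.1e-07). Without the third LPS/IFN-γ array the log2 fold changes were 1.39 for Rab12 and 1.00 for Rab3d.

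Rab9, which returns mannose 6-phosphate receptors from late endosomes to the Golgi, had signals of 9.24, 9.36 and 9.92 with LPS/IFN-γ, compared with 8.54 to 8.80 (median 8.61) in untreated cells. The groups did not overlap and the third array was the highest, with a log2 fold change of 0.89 ± 0.15 (adjusted p = 1.7e-04) and 0.68 without that array. Rab32, a RAB of lysosome-related organelles with a part in host defence, had signals of 12.20, 12.13 and 12 with LPS/IFN-γ, compared with 11.48 to 11.77 (median 11.68) in untreated cells (0.46 ± 0.08, adjusted p = 1.1e-04). Rab29, a close relative of Rab32 that can bring the kinase LRRK2 to membranes, had signals of 9.66, 9.47 and 9.87 with LPS/IFN-γ, compared with 9.25 to 9.35 (median 9.30) in untreated cells (0.37 ± 0.08, adjusted p = 8.4e-04). Both were higher on every LPS/IFN-γ array than on any untreated one, though Rab29 was not called under median scaling (0.28, adjusted p = 0.0903).

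Rab15, which in cultured cells slows the recycling of internalised receptors, exceeded background on 2 of the 3 LPS/IFN-γ arrays and on 0 of 6 untreated ones, so its fold is a bound. The bound sets the bright group's mean against the lowest signal that counts as above background on the dim arrays. It had signals of 5.79, 5.85 and 6.55 with LPS/IFN-γ, compared with 5.11 to 5.53 (median 5.25) in untreated cells, at least 1.30-fold higher (adjusted p = 3.7e-04). Its fitted difference, which is no bound, was 0.80 and without the third LPS/IFN-γ array 0.56. Rab5a, the RAB of early endosome fusion, had signals of 10.88, 10.89 and 10.69 with LPS/IFN-γ, compared with 10.40 to 10.71 (median 10.52) in untreated cells. These groups overlapped (0.29 ± 0.09, adjusted p = 0.0117), and without the second LPS/IFN-γ array the adjusted p was 0.0533. The call was also lost under median scaling (0.22, adjusted p = 0.2816) and with the replicate number as a block (adjusted p = 0.0730). In the fit with that block, untreated arrays whose number no treated array shares do not count. Its relatives Rab5b and Rab5c had log2 fold changes of 0.26 and 0.08 and were not called.

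The lowest fold change belonged to Rab7b, a RAB of late endosomes and the Golgi that in macrophages is known to promote the lysosomal delivery of Toll-like receptor 4, the receptor for LPS. It had signals of 9.04, 8.85 and 9.00 with LPS/IFN-γ, compared with 10.42 to 10.76 (median 10.59) in untreated cells. The groups were far apart (-1.63 ± 0.09, 3.09-fold lower, adjusted p = 9.4e-10), and a second probe gave -1.64. With IL-4 it read 10.57 ± 0.15 and with TGF-β 10.70 ± 0.07 (SD, n = 3 each), called with neither. Rab7, the main RAB of fusion with lysosomes, was also lower (-0.33 ± 0.07, adjusted p = 0.0012).

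Rab31, which carries cargo between the Golgi, early endosomes and early phagosomes, had signals of 11.33, 11.25 and 10.97 with LPS/IFN-γ, compared with 12.24 to 12.33 (median 12.28) in untreated cells (-1.10 ± 0.07, 2.14-fold lower, adjusted p = 7.4e-09). Rab2a, a RAB of traffic between endoplasmic reticulum and Golgi, had signals of 10.77, 10.59 and 10.18 with LPS/IFN-γ, compared with 11.31 to 11.54 (median 11.49) in untreated cells (-0.95 ± 0.10, 1.93-fold lower, adjusted p = 1.5e-06). Neither gene's groups overlapped, and the third array was the lowest for both, with -0.99 for Rab31 and -0.78 for Rab2a without it. Rab11a, a RAB of the slow recycling route, had signals of 6.87, 6.44 and 6.11 with LPS/IFN-γ, compared with 6.93 to 7.28 (median 7.17) in untreated cells. It too was lower without overlap (-0.68 ± 0.12, adjusted p = 3.0e-04), with -0.49 when the third array was left out.

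Rab4a, of the rapid recycling route, had signals of 8.13, 7.72 and 7.66 with LPS/IFN-γ, compared with 8.27 to 8.49 (median 8.36) in untreated cells (-0.54 ± 0.10, adjusted p = 2.4e-04). Rab40c, which joins a ubiquitin ligase through its SOCS box, had signals of 10.69, 10.52 and 10.58 with LPS/IFN-γ, compared with 10.94 to 11.20 (median 11.16) in untreated cells (-0.54 ± 0.07, adjusted p = 1.1e-05). Both were lower without overlap. Rab1b, of the route from endoplasmic reticulum to Golgi, had signals of 7.41, 7.63 and 6.60 with LPS/IFN-γ, compared with 7.46 to 8.08 (median 7.83) in untreated cells. Here the groups overlapped and the third array was far below the others, so that the log2 fold change of -0.60 ± 0.20 (adjusted p = 0.0180) was -0.29 without that array (adjusted p = 0.1702).

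Smaller falls were called for Rab3a (-0.33), a RAB of regulated exocytosis, Rab35 (-0.27), which acts in endocytic recycling, Rab11b (-0.25), the close relative of Rab11a, and Rab8a (-0.23), which carries cargo from the Golgi to the plasma membrane. Under median scaling none of these falls was called (adjusted p = 0.0562 for Rab3a, 0.0717 for Rab35, 0.0858 for Rab11b and 0.1204 for Rab8a). Cyclic loess also lost Rab11b (adjusted p = 0.0949) and Rab8a (adjusted p = 0.2315). The replicate number as a block lost Rab3a (adjusted p = 0.0714) and Rab8a (adjusted p = 0.0583). Without the third LPS/IFN-γ array Rab3a was at -0.21 (adjusted p = 0.1312) and Rab8a at -0.12 (adjusted p = 0.1791). In that fit 16 RAB genes were called, 7 higher and 9 lower, all of them among the 19, beside 48.2% of all genes. Of the 19 calls, 12 had their most extreme LPS/IFN-γ value on the third array, 9 of the 12 lower and 3 of the 7 higher ones. The share over all called genes was not counted, so this is no result about RAB genes alone. The 19 RAB genes not called with LPS/IFN-γ had log2 fold changes of -0.17 (Rab14) to 0.33 (Rab22a).

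**Figure D2:**
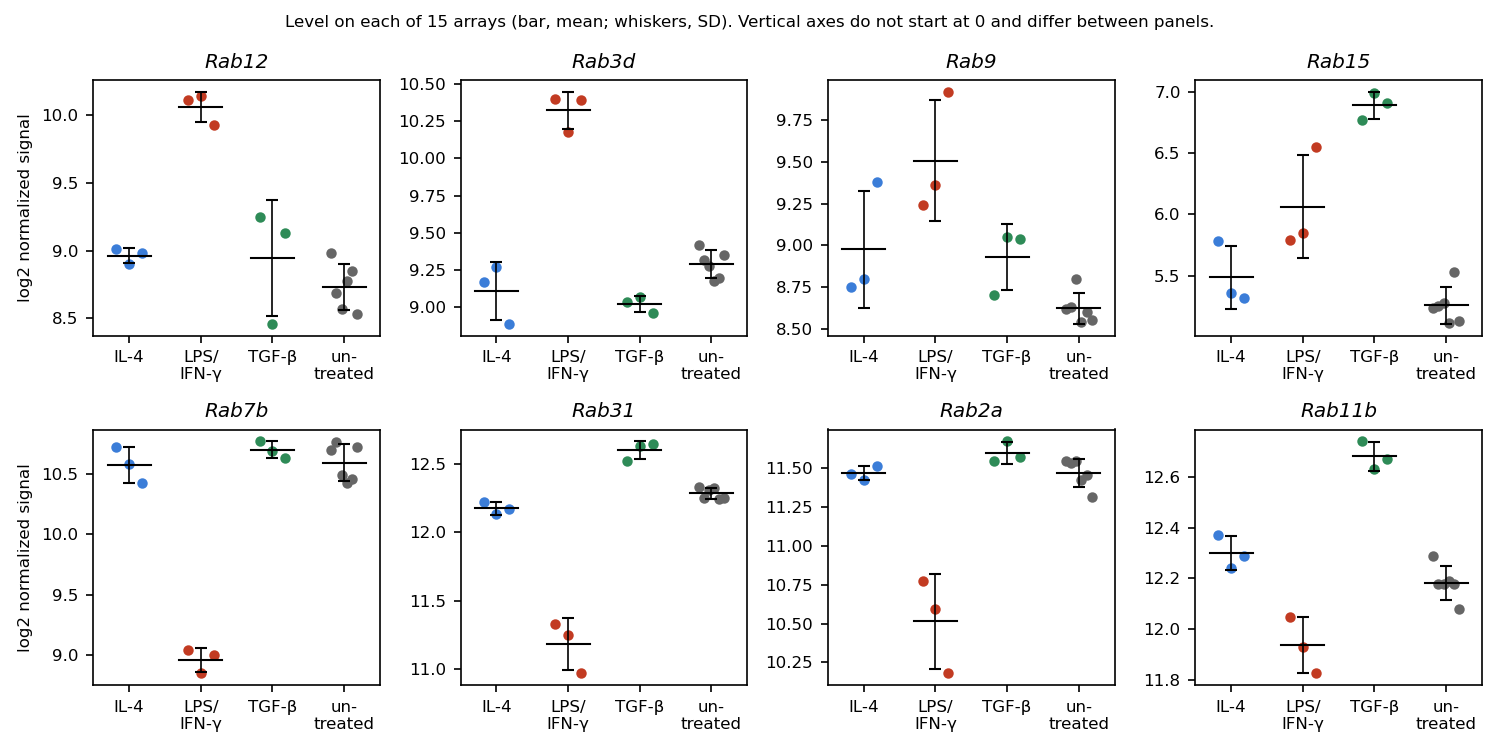
Log2 normalized signal (vertical axis) of 8 RAB genes on each of the 15 arrays (points), with group means (bars) and SD (whiskers), for IL-4, LPS/IFN-γ, TGF-β (n = 3 each) and untreated (n = 6). Rab12 and Rab3d lie highest and Rab7b, Rab31, Rab2a and Rab11b lowest on the LPS/IFN-γ arrays, and Rab15 lies highest on the TGF-β arrays.

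The plot of single arrays shows that the spread within a group was small beside the shift for most of these genes. This was largely given by the choice, as the genes shown were called on these same arrays. The counts by compartment stand beside 21.5% of all genes higher and 34.3% lower with LPS/IFN-γ, and a median of -0.08. The early and recycling endosome group had 2 of its 13 tested genes higher and 5 lower with LPS/IFN-γ, with a median of -0.11. In the late endosome, lysosome and phagosome group 3 of 8 were higher (Rab9, Rab32 and Rab29) and 2 lower (Rab7b and Rab7), with a median of 0.16. Of the 8 genes of endoplasmic reticulum and Golgi traffic 0 were higher and 2 lower (Rab2a and Rab1b), with a median of -0.01. The secretory group had 2 of 7 higher (Rab12 and Rab3d) and 2 lower (Rab3a and Rab8a), with a median of -0.03. Rab12 was placed there by the list used, although the role given above lies between recycling endosomes and lysosomes. The remaining 2 genes were Rab40c, which was lower, and Rab28 (0.17, not called).

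Of neighbouring tested RAB genes, 4 pairs lay closest together. Rab7b and Rab29 lie 151767 bases apart on chromosome 1 (GRCm38.p6) and had log2 fold changes of -1.63 and 0.37. Rab31 and Rab12 lie 721760 bases apart on chromosome 17 and had -1.10 and 1.32. Rab43 and Rab7 lie 186942 bases apart on chromosome 6 and had 0.20, not called, and -0.33. Rab3a and Rab8a lie 1402592 bases apart on chromosome 8 and had -0.33 and -0.23.

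With TGF-β 5 of the 8 rises were in RABs of early and recycling endosomes, a group with 13 of the 38 tested genes. Of all genes 19.7% were higher. Median scaling gave 1 RAB gene higher and 6 lower, beside 523 and 2071 of all genes. Rab15 read 6.77, 6.99 and 6.91 with TGF-β, against 5.11 to 5.53 (median 5.25) untreated, and was above background on 3 of 3 TGF-β and 0 of 6 untreated arrays. It was at least 2.31-fold higher (adjusted p = 9.5e-07). With IL-4 it read 5.78, 5.36 and 5.32 and was above background on 1 of 3 arrays. Of the 8 rises with TGF-β, this was the 1 that was also called under median scaling.

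Rab32 read 12.15, 12.18 and 12.15 with TGF-β, against 11.48 to 11.77 (median 11.68) untreated (0.51 ± 0.08, adjusted p = 7.9e-05). Rab11b read 12.74, 12.63 and 12.67 with TGF-β, against 12.08 to 12.29 (median 12.18) untreated (0.50 ± 0.07, adjusted p = 3.6e-05). Rab21, an endocytic RAB known for integrin traffic, read 9.89, 10.07 and 9.78 with TGF-β, against 9.25 to 9.73 (median 9.42) untreated (0.47 ± 0.11, adjusted p = 0.0041). For all of these the TGF-β arrays lay above every untreated array. Rab29 read 9.65, 9.69 and 9.57 with TGF-β, against 9.25 to 9.35 (median 9.30) untreated, also without overlap (0.34 ± 0.08, adjusted p = 0.0025).

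Rab22a, of early endosomes and recycling tubules, read 8.50, 8.37 and 7.98 with TGF-β, against 7.40 to 8.11 (median 7.86) untreated, and the groups overlapped (0.48 ± 0.16, adjusted p = 0.0269). This call was lost without TGF-β array 1, TGF-β array 2 or untreated array 2, with log2 fold changes of 0.38 to 0.63 and adjusted p up to 0.1375 over the fits that left out 1 array. Rab31 (0.32 ± 0.07, adjusted p = 0.0031) and Rab40c (0.26 ± 0.07, adjusted p = 0.0083) were the remaining rises. Under median scaling the log2 fold changes of Rab32, Rab11b, Rab21, Rab22a, Rab29, Rab31 and Rab40c were 0.29, 0.29, 0.23, 0.28, 0.12, 0.12 and 0.02, none of them called.

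Falls with TGF-β were fewer. Rab35 read 10.56, 10.54 and 10.53 with TGF-β, against 10.75 to 10.89 (median 10.81) untreated, without overlap (-0.27 ± 0.06, adjusted p = 0.0035). Rab3d read 9.04, 9.07 and 8.96 with TGF-β, against 9.18 to 9.42 (median 9.30) untreated (-0.27 ± 0.09, adjusted p = 0.0236). Its groups did not overlap, but the call was lost without TGF-β array 1 or TGF-β array 3 (adjusted p up to 0.0957). Rab6a, of retrograde Golgi traffic, read 8.94, 8.41 and 8.70 with TGF-β, against 8.72 to 9.32 (median 9.11) untreated (-0.39 ± 0.14, adjusted p = 0.0303). Those groups overlapped, the call was lost without TGF-β array 2, TGF-β array 3, untreated array 2 or untreated array 3 (adjusted p up to 0.1924), and the other kept probes of Rab6a gave -0.07 and 0.04. The 27 RAB genes not called with TGF-β had log2 fold changes of -0.29 (Rab3a) to 0.31 (Rab9).

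With TGF-β the counts by compartment stand beside 19.7% of all genes higher and 19.1% lower. The early and recycling endosome group had 5 of 13 genes higher and 1 lower (Rab35) with TGF-β, with a median of 0.21. The late endosome, lysosome and phagosome group had 2 of 8 higher (Rab32 and Rab29) and 0 lower, with a median of 0.16. Of the endoplasmic reticulum and Golgi group 0 of 8 were higher and 1 lower (Rab6a), and of the secretory group 0 of 7 were higher and 1 lower (Rab3d).

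The genes called in opposite directions with LPS/IFN-γ and TGF-β were Rab3d, Rab31, Rab40c and Rab11b. Rab3d was higher with LPS/IFN-γ (1.03) and lower with TGF-β (-0.27). The other 3 were lower with LPS/IFN-γ and higher with TGF-β, Rab31 with -1.10 and 0.32, Rab40c with -0.54 and 0.26, and Rab11b with -0.25 and 0.50. Rab31 read 12.52, 12.63 and 12.64 with TGF-β, against 12.24 to 12.33 untreated. Rab11b had signals of 12.05, 11.93 and 11.83 with LPS/IFN-γ, compared with 12.08 to 12.29 in untreated cells. Rab40c read 11.33, 11.42 and 11.42 with TGF-β, against 10.94 to 11.20 untreated. In each case the LPS/IFN-γ and the TGF-β arrays lay on opposite sides of the untreated range. The opposite calls depended on the scaling: under median scaling the TGF-β values of Rab31 (0.12), Rab40c (0.02) and Rab11b (0.29) were not called, nor was the LPS/IFN-γ value of Rab11b (-0.30, adjusted p = 0.0858). Under cyclic loess the LPS/IFN-γ value of Rab11b (-0.15, adjusted p = 0.0949) and the TGF-β value of Rab3d (-0.23, adjusted p = 0.0521) were not called. Rab15, Rab32 and Rab29 were higher with both stimuli, and Rab35 was lower with both.

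IL-4 gave a single call. Rab8b, a relative of Rab8a in traffic to the plasma membrane, read 11.94, 11.88 and 11.87 with IL-4, against 11.47 to 11.74 (median 11.50) untreated, without overlap (0.36 ± 0.09, adjusted p = 0.0201). The call was lost when any 1 of the 3 IL-4 arrays was left out (adjusted p up to 0.0843), under median scaling (adjusted p = 0.2340) and with the replicate number as a block (adjusted p = 0.1625). A second Rab8b probe gave 0.34 (adjusted p = 0.0601). The other 37 genes had log2 fold changes of -0.25 (Rab1a) to 0.45 (Rab22a). The IL-4 arrays lay all above the untreated ones for 4 genes (Rab8b, Rab35, Rab18 and Rab11a) and all below for 1 (Rab31), or 13.2% of RAB genes beside 20.1% of all genes (8.78% above and 11.4% below).

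Set against each other, the treated groups differed most where LPS/IFN-γ was 1 side. Between LPS/IFN-γ and IL-4, 22 of 38 RAB genes were called, 9 higher and 13 lower with LPS/IFN-γ, or 57.9% beside 50.8% of all genes (21.5% higher and 29.3% lower). Median scaling gave 12 calls, 6 higher and 6 lower, beside 32.5% of all genes. Rab3d (1.22) and Rab12 (1.09) were the highest, and Rab7b (-1.61), Rab31 (-0.99) and Rab2a (-0.94) the lowest. Beside genes also called against untreated, Rab14, which acts between Golgi, endosomes and phagosomes, was lower (-0.48, adjusted p up to 0.0659 without IL-4 array 1, IL-4 array 3 or LPS/IFN-γ array 2). Rab28 (0.30) and Rab33b (0.22), a RAB of the Golgi and autophagy, were higher, and Rab8b was lower (-0.39). Under median scaling none of these was called (adjusted p = 0.0649 for Rab14, 0.0931 for Rab28, 0.3370 for Rab33b and 0.0586 for Rab8b). Rab28 and Rab33b were each also lost in 3 fits that left out 1 array (adjusted p up to 0.1193 and 0.1088). Same-numbered LPS/IFN-γ and IL-4 arrays share a chip. With the replicate number as a block Rab28 and Rab33b were no longer called (adjusted p = 0.0518 and 0.0563).

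Between LPS/IFN-γ and TGF-β 18 were called, 5 higher and 13 lower with LPS/IFN-γ, or 47.4% beside 55.7% of all genes (23.3% higher and 32.4% lower). Median scaling gave 5 higher and 7 lower, beside 1915 and 1393 of all genes. Rab7b (-1.73), Rab31 (-1.41) and Rab2a (-1.08) were again the lowest, and Rab3d (1.30) and Rab12 (1.11) the highest. Rab15, which exceeded background on 2 of the 3 LPS/IFN-γ arrays, was lower with LPS/IFN-γ than with TGF-β (-0.83 ± 0.18, adjusted p = 9.1e-04, with values of -1.07 to -0.35 over the alternatives), as was Rab21 (-0.54), which was not called with LPS/IFN-γ against untreated. Rab24, a RAB linked to autophagy, was called lower (-0.22, -0.06 under median scaling) and Rab5c higher (0.29, adjusted p up to 0.1025 without LPS/IFN-γ array 3, TGF-β array 1 or TGF-β array 3).

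Between IL-4 and TGF-β 8 were called, 1 higher and 7 lower with IL-4, or 21.1% beside 30.4% of all genes (13.8% higher and 16.6% lower), and median scaling gave 2 higher and 1 lower. Rab35 was higher with IL-4 (0.46 ± 0.07, adjusted p = 2.5e-04). Rab15 (-1.40), Rab21 (-0.52), Rab32 (-0.52), Rab29 (-0.45), Rab31 (-0.42), Rab11b (-0.38) and Rab40c (-0.26) were lower with IL-4. Rab15 was above background on 1 of 3 IL-4 arrays, and its value ran from -1.55 to -0.54 over the alternatives. Rab35 read 11.04, 10.99 and 10.98 with IL-4 and 10.56, 10.54 and 10.53 with TGF-β, on opposite sides of the untreated range of 10.75 to 10.89, although the difference between IL-4 and untreated was not called (0.19 ± 0.06, adjusted p = 0.0747).

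**Figure D3:**
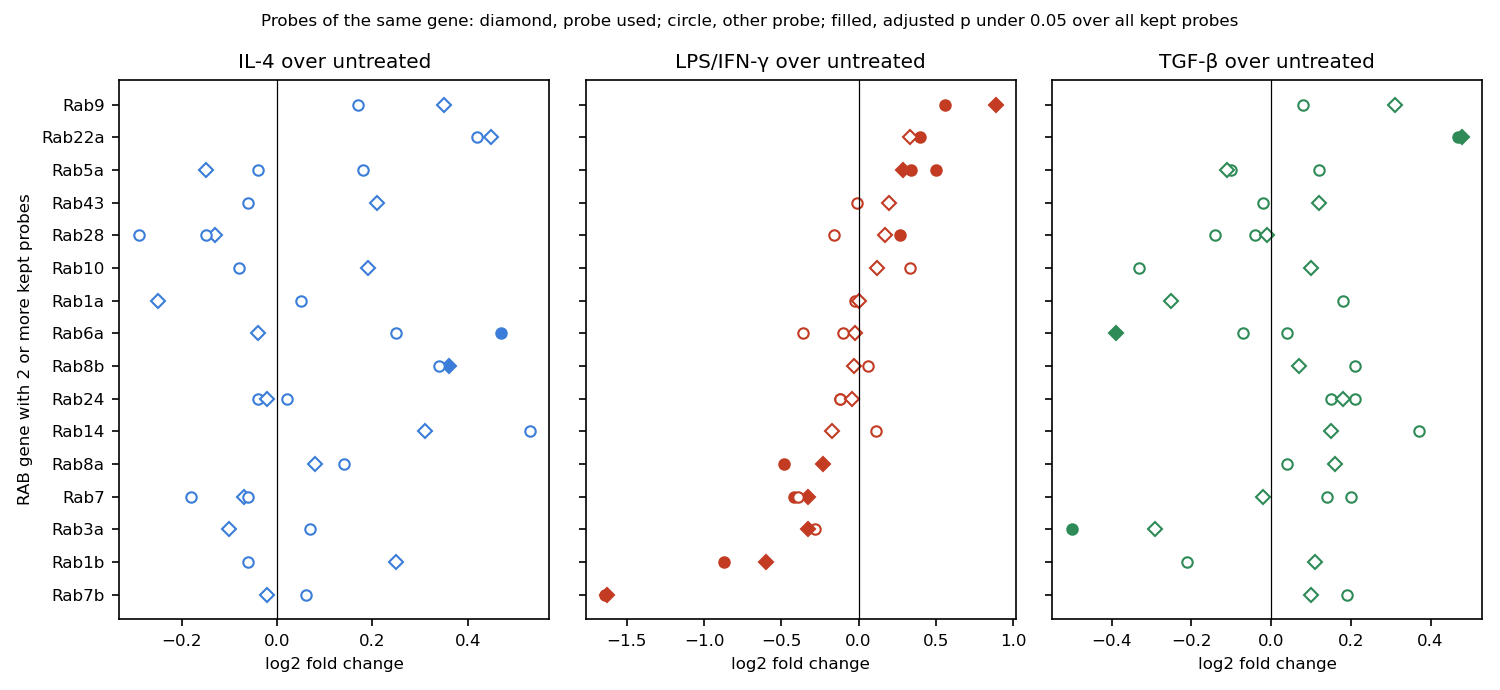
Log2 fold change against untreated (horizontal axis) of every kept probe of the 16 RAB genes with 2 or more kept probes (vertical axis), for IL-4, LPS/IFN-γ and TGF-β. Diamonds are the probes used for the gene, circles the other probes, and filled symbols had adjusted p under 0.05 over all kept probes. The probes of Rab7b, Rab1b, Rab8a and Rab5a lie on 1 side of 0 with LPS/IFN-γ, and those of Rab6a lie on both sides with TGF-β.

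Where a gene had several kept probes, the brightest stood for it. As the plot of single probes shows, 16 genes had a second probe, and 22 had 1, among them Rab12, Rab3d, Rab31, Rab2a, Rab15 and Rab11a. Second probes had the same direction with LPS/IFN-γ for Rab1b (-0.87, adjusted p = 3.3e-04, with 1 of its 3 LPS/IFN-γ values above background), Rab8a (-0.48, adjusted p = 4.3e-04) and Rab5a (0.50 and 0.34). For Rab7 the others gave -0.42 and -0.39 (adjusted p = 0.0295 and 0.0907), and for Rab3a -0.28 (adjusted p = 0.2028). The second probe of Rab9 was above background on 0 of 6 untreated arrays, so it gives no exact fold.

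Second probes were called where the probe used was not for Rab28 (0.27, adjusted p = 0.0171, another probe -0.16) and Rab22a (0.40, adjusted p = 0.0489) with LPS/IFN-γ. So were those of Rab6a with IL-4 (0.47, adjusted p = 0.0271) and, lower, of Rab3a with TGF-β (adjusted p = 0.0400). Rab3a was also called with TGF-β by the mean of its kept probes and under median scaling. Signs differed between the probes of 1 gene, with no call on either, for Rab10, Rab1a, Rab1b, Rab24, Rab3a, Rab43, Rab5a and Rab7b with IL-4. The second probe of Rab3a was above background on 0 of 3 TGF-β arrays and gives no exact fold there. Signs also differed for Rab14, Rab43 and Rab8b with LPS/IFN-γ, and for Rab10, Rab1a, Rab1b, Rab43, Rab5a and Rab7 with TGF-β.

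The 15 tested RAB genes called with no stimulus were Rab1a, Rab4b, Rab5b, Rab5c, Rab10, Rab13, Rab14, Rab18, Rab19, Rab24, Rab28, Rab33b, Rab39, Rab39b and Rab43. A p over the threshold does not show that they were unchanged. Of the 38 tested genes 35 were above background on all 15 arrays, and the others were Rab15 (6 arrays), Rab19 (10) and Rab39b (7). The 21 genes not tested were Rab2b, Rab3b, Rab3c, Rab6b, Rab9b, Rab17, Rab20, Rab23, Rab25, Rab26, Rab27a, Rab27b, Rab30, Rab33a, Rab34, Rab36, Rab37, Rab38, Rab40b, Rab42 and Rab44. Of these 19 were above background on 0 arrays, Rab33a on 1 LPS/IFN-γ array and Rab44 on 1 IL-4 array. They include both Rab27 genes, which drive granule secretion in many blood cells, and Rab25 and Rab17, known from epithelia.

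The regulators that act on RABs are described by lists of exchange factors, GTPase activators, effectors and partners. Their counts stand beside calls for 5.69% of all genes higher and 6.31% lower with IL-4, 21.5% and 34.3% with LPS/IFN-γ, and 19.7% and 19.1% with TGF-β. Of 29 tested exchange factors 3 were higher and 2 lower with IL-4, 5 higher and 12 lower with LPS/IFN-γ, and 9 higher and 3 lower with TGF-β. Ric1, part of the exchange factor for Rab6, was higher with IL-4 (0.84), LPS/IFN-γ (0.67) and TGF-β (0.60). With IL-4 Dennd1a (0.41), an exchange factor for Rab35, was higher and Dennd3 (-0.26), known to act on Rab12, was lower. Dennd6b was lower with IL-4 (-0.54, above background on 1 of 3 IL-4 arrays) and higher with LPS/IFN-γ (1.08). The lowest with LPS/IFN-γ were Rin2 (-1.32 ± 0.10, adjusted p = 1.9e-08), a Rab5 exchange factor, and Rab3il1, which was above background on 0 LPS/IFN-γ arrays (at least 1.39-fold lower, adjusted p = 1.0e-05). With TGF-β Rabgef1, another Rab5 exchange factor, was higher (0.61), while Dennd2d (-0.99) and Rab3ip (at least 1.17-fold lower) were lower.

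Of 31 tested GTPase activators 5 were higher and 1 lower with IL-4, 5 higher and 7 lower with LPS/IFN-γ, and 9 higher and 2 lower with TGF-β. Tbc1d16 was the highest with IL-4 (1.36, above background on 4 of 6 untreated arrays) and with TGF-β (0.73). Tbc1d20, an activator for Rab1, was higher with IL-4 (0.66). Sgsm1 was lower with IL-4 (-0.25) and LPS/IFN-γ (-1.02 ± 0.08, adjusted p = 2.2e-08). With LPS/IFN-γ Tbc1d9 (0.81) and Evi5 (0.47), linked to Rab11, were higher, and Rab3gap2 (-0.81), known from the Rab3 and Rab18 cycles, was lower. With TGF-β Tbc1d10a (0.68) was higher, and Tbc1d25 (-0.29) and Tbc1d13 (-0.21), linked to Rab35, were lower.

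Of 22 tested effectors 2 were higher and 0 lower with IL-4 (Plekhm1, 0.34, a Rab7 effector, and Rab11fip5, 0.30, a Rab11 effector), 3 higher and 11 lower with LPS/IFN-γ, and 7 higher and 2 lower with TGF-β. The lowest with LPS/IFN-γ were Rubcn (-1.35 ± 0.09, adjusted p = 4.7e-09), a Rab7 binder that restrains autophagy and endosome maturation, and Myo5a (-1.22 ± 0.08, adjusted p = 5.6e-09), the motor that carries RAB-bearing organelles on actin. Rilpl2 was higher with LPS/IFN-γ (0.76) and lower with TGF-β (-0.37), and Micall2 was higher with LPS/IFN-γ (0.51). With TGF-β Mical1 (0.60) and Ocrl (0.56) were higher and Rubcn was lower (-0.42). Of 5 tested genes of the GDI, escort and prenylation list 0 were called with IL-4, while with LPS/IFN-γ 3 were higher, Rabggta (0.48), a subunit of the enzyme that attaches the lipid, and Rabif (0.36) among them, and Gdi2 (-0.52) was lower. Rabif was lower with TGF-β (-0.27).

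Among the tethers, 9 genes were tested of a list for the HOPS and CORVET complexes, which tether endosomes to each other and to lysosomes. That list also holds Vps33b and Vipas39, which are not subunits of these complexes. With LPS/IFN-γ 0 were higher and 5 lower, beside 21.5% and 34.3% of all genes, with Tgfbrap1 (-0.66) and Vps33a (-0.65) the lowest and a median of -0.50. With IL-4 Vps33a was higher (0.35). With TGF-β, where 19.7% of all genes were higher and 19.1% lower, Vps39 (0.32) and Vps41 (0.28) were higher, and Vps33b (-0.23) and Vipas39 (-0.34) were lower. Of 7 exocyst genes, which tether secretory vesicles, 0 were higher and 4 lower with LPS/IFN-γ, Exoc8 (-0.71) and Exoc3 (-0.33) the lowest, and Exoc1 was higher with TGF-β (0.21, but -0.03 and not called under median scaling). Without the third LPS/IFN-γ array Exoc8 was at -0.47.

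Of 30 tested SNAREs, which fuse the tethered membranes, 1 was higher with IL-4 (Vamp4, 0.24), 6 were higher and 8 lower with LPS/IFN-γ, and 11 were higher and 0 lower with TGF-β (1 and 1 under median scaling). Of all genes 21.5% were higher and 34.3% lower with LPS/IFN-γ, and 19.7% and 19.1% with TGF-β. Stx11, a syntaxin of immune cells needed for cytotoxic granule release, had the highest fold change (2.44 ± 0.09, adjusted p = 2.9e-12) with LPS/IFN-γ, averaging 11.51 ± 0.18 (SD, n = 3), against 9.07 ± 0.09 untreated (SD, n = 6). Stx2 (0.75, above background on 3 of 6 untreated arrays) was higher, and Stx17 (-0.61), which fuses autophagosomes with lysosomes, and Vamp1 (-0.56) were lower. With TGF-β Ykt6 (0.81) and Snap47 (0.55) were the highest.

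The counts of these lists depended on the scaling. Under median scaling 1 exchange factor was higher and 3 lower with TGF-β, 2 activators higher and 3 lower, and 0 effectors higher and 3 lower. Of the HOPS and CORVET list 0 were then higher and 2 lower, Vps33b and Vipas39. Over all genes that scaling gave 523 higher and 2071 lower. Of the genes named above with TGF-β, Ric1, Mical1, Ocrl, Vps39, Vps41 and Snap47 were then not called, and under cyclic loess Tbc1d13, Vps33b and Vipas39 were not. With IL-4 median scaling kept 3 of the 11 named calls (Ric1, Dennd6b and Tbc1d16), and cyclic loess kept all but Sgsm1. With LPS/IFN-γ all 23 were kept under cyclic loess and all but Rabif under median scaling. Without the third LPS/IFN-γ array all but Gdi2 (-0.44, adjusted p = 0.0651) and Vamp1 (-0.45, adjusted p = 0.0581) were kept. In that fit the called genes were 15 exchange factors, 13 activators, 11 effectors and 2 of the GDI, escort and prenylation list. With them were 5 of the HOPS and CORVET list, 3 exocyst genes and 11 SNAREs, beside 48.2% of all genes.

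**Figure D4:**
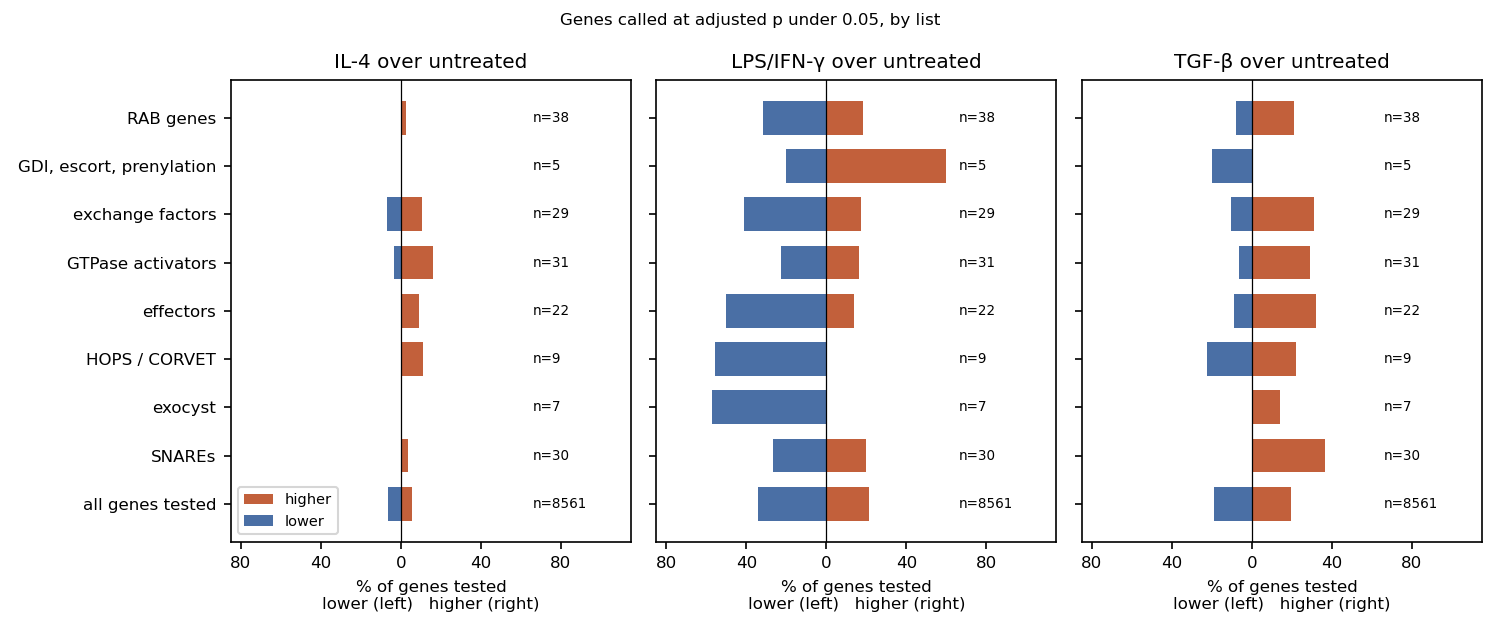
Percent of tested genes called higher or lower (horizontal axis) in the RAB genes, 7 lists of their regulators and partners and all genes (vertical axis), with IL-4, LPS/IFN-γ and TGF-β against untreated. With LPS/IFN-γ 0 of the 9 genes of the HOPS and CORVET list (1 under cyclic loess) and 0 of the 7 exocyst genes were higher. With TGF-β 11 of 30 SNAREs were higher and 0 lower (1 and 1 under median scaling).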

How the data were processed

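Total RNA of mouse microglia was measured on 15 Illumina bead arrays, with 3 arrays for each of 3 stimuli and 6 untreated. The first deposited table holds, per the file headers, a non-normalized signal intensity and a detection p-value for every probe and array. The second holds log2 values that the authors made, with Partek according to the submitters' processing notes, whose version is not given in the sources used here. By comparison, these are quantile-normalized log2 intensities with the chip effect removed (99.995% within 0.001), and they served as an alternative.

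Intensities were background-corrected with limma's nec, from the detection p-values (offset 16), quantile-normalized and taken to log2. A probe was kept where its detection p was under 0.01 on 3 or more arrays (15434, of which 13310 had 1 annotated gene), and the brightest probe stood for each of 8561 genes. The median raw signal per array was 130.0 to 153.9. The number of arrays limits precision, with a median standard error of 0.101 on the log2 scale against untreated. Group means over all 15 arrays were fitted with lmFit and eBayes (R 4.3.3, limma 3.58.1), two-sided, with Benjamini-Hochberg adjustment over all genes within each comparison, a call being an adjusted p under 0.05. Where every array of a group was below background, a fold is a bound.

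Alternatives were no background correction, scaling by the array median, cyclic loess, the authors' table, 2 other filters, the mean of a gene's probes, the chip or the replicate number as a block, and leaving out each array. With the replicate number as a block, untreated arrays whose number no treated array shares do not count, so calls can be lost through fewer arrays. The third untreated array also lies on another chip than the third treated arrays. For the regulator lists, both other scalings and leaving out the third LPS/IFN-γ array were chosen after seeing the data. The labels number arrays within groups, and same-numbered treated arrays share a chip. Deviations from the group means of the same-numbered arrays correlated at 0.23, 0.31 and 0.16 for LPS/IFN-γ and IL-4. Each LPS/IFN-γ array correlated best with its same-numbered IL-4 array, which did not hold throughout in the other comparisons. As these arrays also share a chip, pairing by number and by chip cannot be told apart. The members and gene lists were chosen with earlier results of these data known. The text gives values on every array for up to 6 called RAB genes with the highest and up to 6 with the lowest fold change against untreated per comparison and for those called in opposite directions, and it names up to 2 called genes at each end of each regulator list. Rab5a was added to the genes given in full after its values were seen. Promoter windows came from RefSeq (GRCm38.p6).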

Additional observations from a re-analysis of the deposited data

Results flagged for a closer look

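In the 6 untreated arrays, 1 array stood far from the others, by Dixon's test at the 95% level, for 4 of the 38 RAB genes, and chance alone marks about 1 in 20 groups. Rab18 read 9.74 on untreated array 1, against 10.02 on the next array and 10.16 at the other end. Rab8b read 11.74 on the same array, against 11.56 on the next, and this value lies below all 3 IL-4 arrays. Rab40c read 10.94 on untreated array 6, against 11.14 on the next. Rab9 read 8.80 on untreated array 3, against 8.63 on the next. Groups of 3 arrays were not tested in this way.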

How the results depend on the processing

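No RAB call changed direction under any setting, while of the regulator genes Exoc1 with TGF-β was at -0.03 under median scaling. Of the calls, 12 of 19 with LPS/IFN-γ, 2 of 11 with TGF-β and 0 of 1 with IL-4 were kept in all 9 settings and all 15 fits that left out 1 array, as were 10 of 22 for LPS/IFN-γ against IL-4, 10 of 18 for LPS/IFN-γ against TGF-β and 2 of 8 for IL-4 against TGF-β. Scaling by the array median gave 0 RAB calls with IL-4, 7 with TGF-β, 12 for LPS/IFN-γ against IL-4 and 3 for IL-4 against TGF-β, beside 4.03%, 30.3%, 32.5% and 15.1% of all genes. It gave RAB medians of -0.06 with IL-4, -0.09 with LPS/IFN-γ, -0.09 with TGF-β, 0.07 for LPS/IFN-γ against TGF-β and 0.09 for IL-4 against TGF-β. With IL-4 there were 2 calls with no background correction, 2 with cyclic loess and 5 in the authors' table. These stand beside 13.6%, 11.5% and 20.7% of all genes. With LPS/IFN-γ cyclic loess gave a median of 0.07. Within single chips the median was 0.09 (chip 3) with IL-4, -0.14 (chip 1) and 0.11 (chip 3) with LPS/IFN-γ, 0.04 (chip 3) with TGF-β, -0.16 (chip 1) for LPS/IFN-γ against IL-4, -0.22 (chip 2) and 0.01 (chip 3) for LPS/IFN-γ against TGF-β, and -0.15 (chip 2) for IL-4 against TGF-β. Leaving out 1 array gave 0 to 2 calls and medians of -0.01 to 0.07 with IL-4, 16 to 20 and -0.03 to 0.03 with LPS/IFN-γ, 9 to 15 and 0.08 to 0.14 with TGF-β, 18 to 23 and -0.17 to -0.02 for LPS/IFN-γ against IL-4, 15 to 20 and -0.14 to -0.04 for LPS/IFN-γ against TGF-β, and 7 to 10 and -0.06 to -0.02 for IL-4 against TGF-β. The lowest count with IL-4 came without IL-4 array 1 or 3 and the highest without LPS/IFN-γ array 3. Shares over all genes are not given for these ranges, which are therefore no result about RAB genes alone. With the replicate number as a block (replicate block) the calls numbered 0 with IL-4, 15 with LPS/IFN-γ, 9 with TGF-β, 20 for LPS/IFN-γ against IL-4, 20 for LPS/IFN-γ against TGF-β and 8 for IL-4 against TGF-β. In the first 5 of these the shares of all genes were 5.36%, 47.2%, 30.3%, 49.4% and 54.5%. Untreated arrays whose number no treated array shares do not count in this fit, so it rests on fewer arrays. Same-numbered LPS/IFN-γ and untreated arrays correlated at 0.18, 0.18 and 0.03, and IL-4 and untreated ones at 0.32, 0.25 and 0.07. The cause of these changes was not tested. Of 1896 values of single genes under the alternatives, 107 lost the call. Probes near background limit Rab15, Rab19 and Rab39b.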
